A study of Mus musculus with 10 samples.

Results

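The genes described here are 34 components of the JAK-STAT pathway and of the interferon regulatory factor (IRF) family: 8 receptor chains for the interferons, IL-10 and IL-6, 4 Janus kinases, 6 STAT transcription factors, 4 feedback inhibitors of the SOCS family, 4 further negative regulators (Pias1 and 3 tyrosine phosphatases) and 8 IRF-family genes. The set is a list of gene names, drawn up with earlier results of these data known, and all 34 were found by symbol among the 38215 genes of the expression table. The RNA came from a mouse acute myeloid leukaemia (AML) made by transducing lineage-depleted bone marrow with the GFP retrovirus MSCV-IRES-GFP that carries AML1-ETO, a fusion transcription factor, and NrasG12D, an activated RAS protein. The primary leukaemias arose in Rag2-/-γc-/- mice, and GFP+ AML cells from their spleens were passed to secondary recipients. GFP+ splenocytes were collected once those recipients had AML, from 5 immunocompetent C57BL/6J mice (libraries 1, 3, 4, 5 and 6) and from 5 Rag2-/-γc-/- mice (libraries 7 to 11), which lack T, B and NK cells. All 10 libraries therefore share the oncogenes, the retroviral vector and a first passage without adaptive immunity. They differ by the labels only in the secondary host, so the comparison is one of transcripts of GFP+ splenocytes between the hosts. No drug or cytokine was given by the labels, and the ages of the mice, the genotype of the marrow donors and the number of primary leukaemias were not stated. Which primary leukaemia went to which recipient was not stated either, so host and primary of origin cannot be told apart here. Libraries that share a primary would not be independent. The p-values below thus measure the spread between these libraries, which may be in part technical.

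Cytokine receptors of this class have no enzymatic activity of their own and signal through Janus kinases bound to their tails. The kinases phosphorylate STAT proteins, which pair, enter the nucleus and bind DNA: the pairs made after interferon-γ or IL-6 bind the palindromic GAS element, and STAT2 with IRF9 and a further STAT binds the interferon-stimulated response element (ISRE) after type I interferon. SOCS genes are themselves STAT targets and shut the receptors down, and several IRF genes are induced by the same signals and bind ISRE-like sites. In myeloid cells interferon-γ made by T and NK cells is a main input to the pathway, and mutant RAS and cytokine receptors share downstream kinases in AML.

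The 2 DNA elements were looked for in RefSeq promoter windows (build GRCm38.p6, from 250 bases before to 50 bases after an annotated start), which 30 of the 34 genes had, in 35 windows. Il10ra, Il10rb, Ptpn2 and Socs2 had no entry. The GAS core was searched as TTCNNNGAA, which reads the same on both strands, and the ISRE core as TTTCNNTTTC with its other strand GAAANNGAAA. A GAS core lay in a window of 6 of the 30 genes (20%), against 9.55% of the 27025 genes with a window. An ISRE core lay in a window of 4 of the 30 (13.3%), against 3.99% of all genes. The sequences below are shown because they carry one of the elements next to a gene whose values are described in detail later; capitals mark the matched letters, the strand is that of the gene, and the printed stretch ends at the base before the start, or at the last matched base in Cish. A match describes these letters only and is not a measured binding site.
Irf1 (chr11:53769764-53770013, plus strand): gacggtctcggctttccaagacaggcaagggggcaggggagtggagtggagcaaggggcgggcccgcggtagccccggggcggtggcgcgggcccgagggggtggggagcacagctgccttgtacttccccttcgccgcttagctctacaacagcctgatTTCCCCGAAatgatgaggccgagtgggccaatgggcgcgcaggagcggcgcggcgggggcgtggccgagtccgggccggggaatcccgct
Irf2 (chr8:46739495-46739744, plus strand): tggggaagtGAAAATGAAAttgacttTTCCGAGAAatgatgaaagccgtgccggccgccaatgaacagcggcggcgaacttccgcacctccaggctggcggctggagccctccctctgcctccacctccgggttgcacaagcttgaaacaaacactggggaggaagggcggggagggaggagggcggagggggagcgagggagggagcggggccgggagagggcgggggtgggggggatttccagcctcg
Ifnar2 (chr16:91372533-91372782, plus strand): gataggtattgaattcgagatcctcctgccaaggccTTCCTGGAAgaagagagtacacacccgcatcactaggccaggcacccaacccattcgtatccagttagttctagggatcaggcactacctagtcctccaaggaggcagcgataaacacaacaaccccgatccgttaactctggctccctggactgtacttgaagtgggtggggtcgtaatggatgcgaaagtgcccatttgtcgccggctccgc
Socs3 (chr11:117969367-117969616, minus strand): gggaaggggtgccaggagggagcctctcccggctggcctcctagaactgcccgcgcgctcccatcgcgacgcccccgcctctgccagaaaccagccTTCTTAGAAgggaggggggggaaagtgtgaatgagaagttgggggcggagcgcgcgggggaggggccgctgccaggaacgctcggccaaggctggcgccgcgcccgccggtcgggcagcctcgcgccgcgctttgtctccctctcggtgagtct
Cish (chr9:107296409-107296678, plus strand): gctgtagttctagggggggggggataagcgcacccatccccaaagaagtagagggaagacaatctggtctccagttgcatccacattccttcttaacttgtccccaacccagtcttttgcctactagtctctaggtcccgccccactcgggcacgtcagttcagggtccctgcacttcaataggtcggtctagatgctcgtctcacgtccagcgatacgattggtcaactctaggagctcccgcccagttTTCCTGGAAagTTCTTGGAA
Socs1 (chr16:10785537-10785786, minus strand): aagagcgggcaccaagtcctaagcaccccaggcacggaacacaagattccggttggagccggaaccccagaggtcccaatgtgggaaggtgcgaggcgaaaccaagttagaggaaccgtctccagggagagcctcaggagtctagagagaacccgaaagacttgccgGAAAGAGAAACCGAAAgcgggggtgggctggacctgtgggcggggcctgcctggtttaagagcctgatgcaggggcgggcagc
Stat2 (chr10:128270248-128270497, plus strand): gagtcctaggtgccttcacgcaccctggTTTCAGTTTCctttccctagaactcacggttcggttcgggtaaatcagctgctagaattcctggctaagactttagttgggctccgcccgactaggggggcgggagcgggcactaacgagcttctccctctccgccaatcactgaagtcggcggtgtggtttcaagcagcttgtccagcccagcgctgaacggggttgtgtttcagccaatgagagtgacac
In Irf1 the GAS core began at position -90 from the start, in Ifnar2 at -214 and in Socs3 at -154. Irf2 held both elements close together, with the ISRE core at -241 and the GAS core at -224. In Cish 2 GAS cores followed each other directly after the start, and in Socs1 2 ISRE cores overlapped. Stat2 carried an ISRE core at -222. Ifnar1 had a GAS core at -5. Stat4 had an ISRE core at -97 in the window from chr1:52007990, which lies inside the gene. Its window at the annotated gene start, from chr1:51986898, held no match. A further window of Irf1, from chr11:53770223, also held none. The windows of Irf4, Il6ra and Jak1 held neither set of letters. Of the 5 genes called different between the hosts below, Irf1 and Ifnar2 thus had a match in a window. So did Irf2, Socs1, Socs3, Cish, Stat2 and Ifnar1, which were not called, and Stat4, which could not be tested. A link between matches and calls was not tested.

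Most of the pathway was expressed in these cells. Of the 34 genes, 24 averaged over 50 CPM (counts scaled to library size by the TMM method) across the 10 libraries, as did 29.6% of all genes tested. Per kilobase of exon, which allows levels of different genes to be compared, the 3 highest were Irf5 at 159 CPM per kilobase (range over the libraries 134 to 192), the phosphatase gene Ptpn6 at 154 (123 to 194) and the interferon-γ receptor chain Ifngr1 at 145 (100.2 to 165). Their ranges overlapped, so their order was not resolved. The next levels, Irf2bp2 at 49.8 (36.5 to 78.1) and Ifngr2 at 46.2 (39.8 to 53.4), lay below all of them without overlap. Exon lengths are merged over all annotated transcripts, so a gene with long rare isoforms reads low on this scale.

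Within each class the levels per kilobase fell in a clear order in some places only. Among the kinases the order was Jak1 at 38.4 CPM per kilobase, Jak2 at 36.4, Tyk2 at 22.6 and Jak3 at 17.2, and neighbours in it overlapped over the libraries. Among the STAT genes, Stat6 (40.6 CPM per kilobase, range 34.6 to 45.2), which carries IL-4 and IL-13 signals, was above all others in every library. Stat3 (15.5), Stat2 (13.6) and Stat5b (9.07) followed, neighbours again overlapping, then Stat5a (5.24, range 3.87 to 6.02), which did not reach the Stat5b range of 8.21 to 9.89. Stat4, the STAT of IL-12 signalling in lymphocytes, stood at 0.0947. The feedback genes were low, with Socs3 at 9.94, Socs1 at 3.31, Cish at 0.0608 and Socs2 at 0.0607. The spread over libraries also differed: the coefficient of variation was 5.54% for Stat5b, 6.72% for Ptpn2 and 6.78% for Irf9, and 54.4% for Il6ra, 56.2% for Socs3, 61.5% for Socs2, 90.7% for Cish and 206% for Stat4, the last 3 all near the detection limit.

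**Figure D1:**
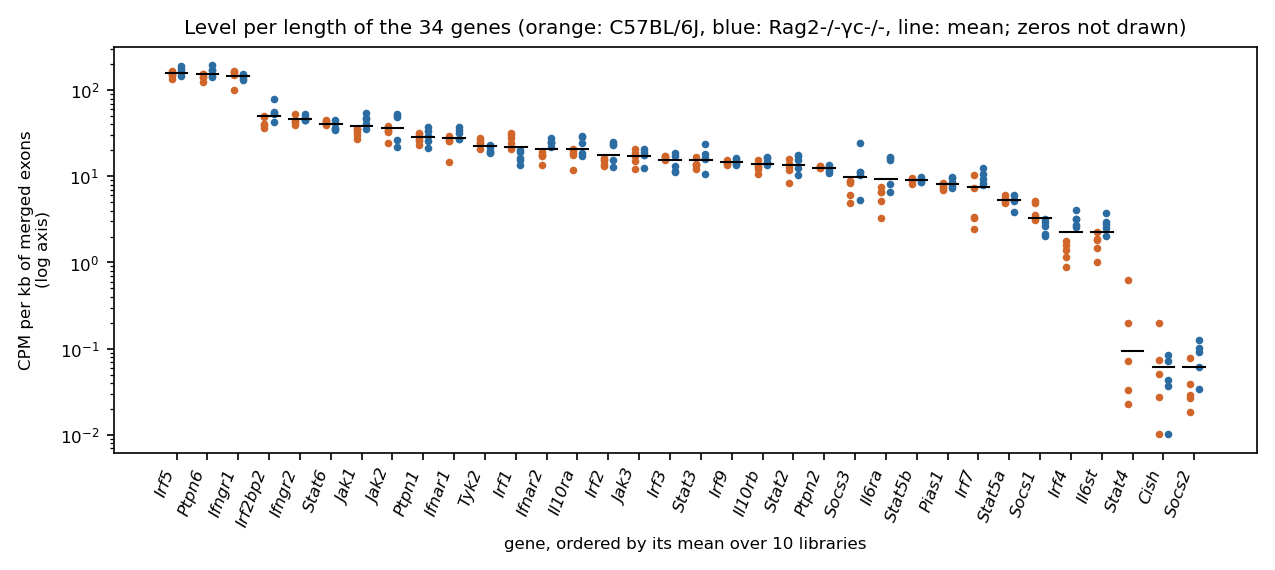
Level of each of the 34 genes in CPM per kilobase of merged exon on a log axis, ordered by mean, with 1 point per library (orange C57BL/6J, blue Rag2-/-γc-/-) and a line at the mean over the 10 libraries; values of 0 are not drawn. Irf5, Ptpn6 and Ifngr1 lie above all others, and Socs2, Cish and Stat4 lie below 1.

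The host comparison called few of these genes. With edgeR's quasi-likelihood test and Benjamini-Hochberg adjustment over 13966 genes at a threshold of 0.05, 33 of the 34 genes could be tested. Of them 1, Irf1, rose in C57BL/6J recipients (3.03%, against 3.32% of all genes tested) and 4, Irf4, Ifnar2, Il6ra and Jak1, fell there (12.1%, against 4.47% of all genes). The remaining 28 tested genes did not pass, and Stat4 was too low to enter the test. The log2 fold change, C57BL/6J over Rag2-/-γc-/-, was below 0 in 24 of the 33 genes, with a median of -0.19 beside 0.00 for all genes tested. In bulk RNA of this kind a lower level per cell and fewer cells that express a gene cannot be told apart.

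**Figure D2:**
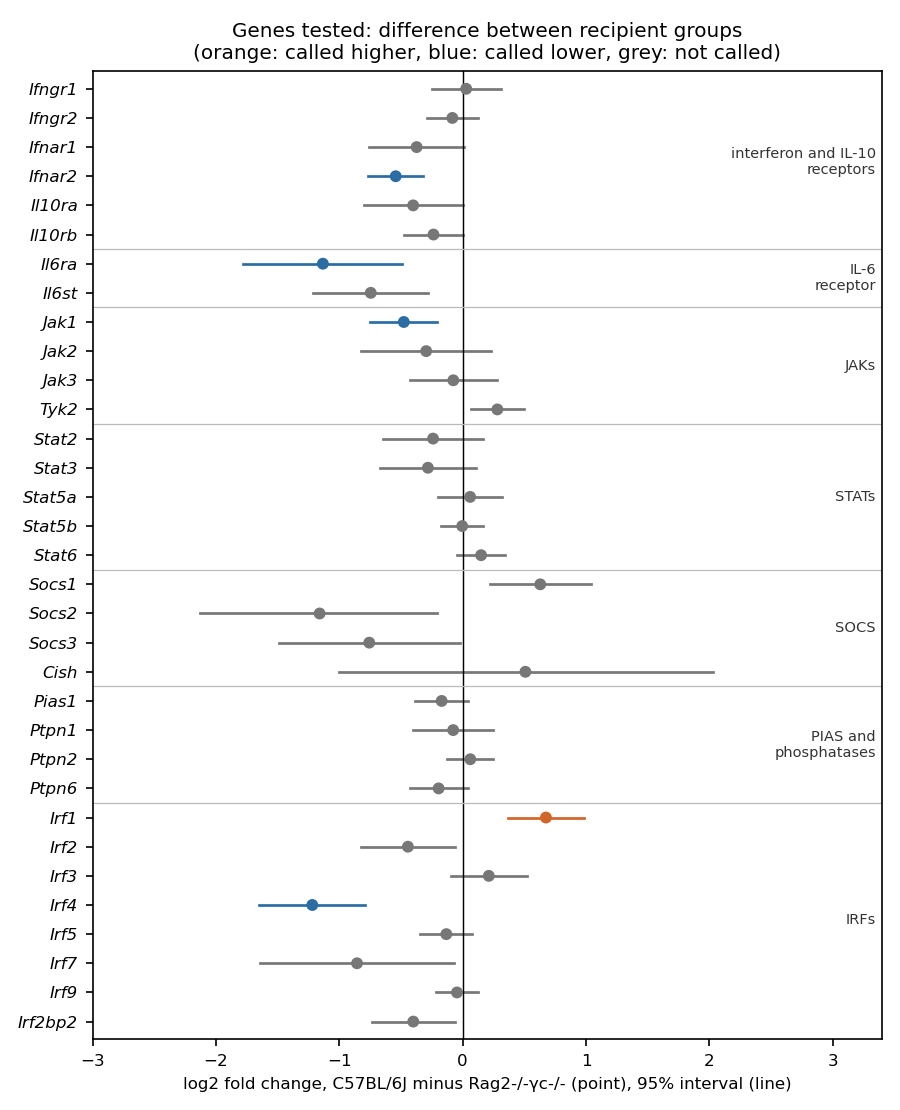
Log2 fold change (C57BL/6J over Rag2-/-γc-/-) of the 33 tested genes with its 95% interval, grouped by role, in orange where called higher, blue where called lower and grey where not called by edgeR. Irf1 is the orange point right of 0, and Irf4, Il6ra, Ifnar2 and Jak1 are the blue points left of it.

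Irf1, a transcription factor classically induced by interferon-γ, lies at chr11:53770014-53778374 on the plus strand (GRCm38). In C57BL/6J recipients it stood at 81.6, 121, 98.2, 125 and 111 CPM in libraries 1, 3, 4, 5 and 6. In Rag2-/-γc-/- recipients it stood at 75.6, 62, 53.5, 64.9 and 79.8 CPM in libraries 7 to 11. Every C57BL/6J library was above every Rag2-/-γc-/- library, although library 1 exceeded library 11 by little. Mean levels of 107 ± 17.7 and 67.2 ± 10.6 CPM (± SD over 5 libraries) gave 0.68 ± 0.14 on the log2 scale (± SE; 95% interval 0.37 to 0.98), or 1.60-fold, with an edgeR adjusted p of 0.0146. It was the only one of the 33 tested genes with every C57BL/6J library on top, a pattern that 4.13% of all tested genes showed.

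Irf4, an IRF that in myeloid cells is tied to dendritic cell and alternatively activated macrophage programs, lies at chr13:30749226-30766927 on the plus strand. Its values were 8.77, 7.85, 5.66, 6.83 and 4.35 CPM in C57BL/6J libraries 1, 3, 4, 5 and 6. They were 20.1, 15.8, 15.9, 13.3 and 12.8 CPM in Rag2-/-γc-/- libraries 7 to 11. The groups did not overlap, and library 7 was the highest. Irf4 averaged 6.69 ± 1.75 against 15.6 ± 2.90 CPM, a log2 fold change of -1.22 ± 0.20 (95% interval -1.65 to -0.79), 2.33-fold higher in Rag2-/-γc-/- recipients (edgeR adjusted p = 0.00371). This was the largest change in size among the 33 tested genes. Irf4 and Irf1 thus moved in opposite directions.

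**Figure D3:**
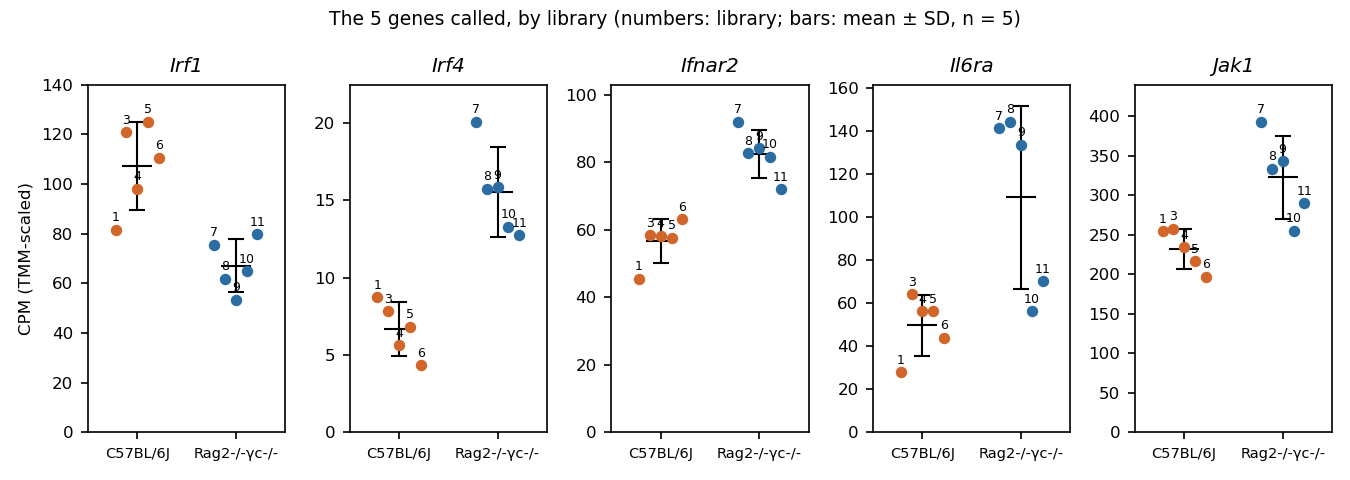
CPM in each library of the 5 genes that passed the test, 1 panel per gene with an axis from 0, numbered points for libraries (orange C57BL/6J, blue Rag2-/-γc-/-) and bars for the mean ± SD of each group. The groups are apart for Irf1, Irf4 and Ifnar2, and for Il6ra and Jak1 libraries 7, 8 and 9 are above the other 7.

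Of the receptor chains, Ifnar2, the signalling chain of the type I interferon receptor that binds STAT2, fell in C57BL/6J recipients (chr16:91372783-91405589, plus strand). It stood at 45.5, 58.4, 58.3, 57.7 and 63.2 CPM in C57BL/6J libraries and at 92.0, 82.6, 84.1, 81.6 and 72.0 CPM in Rag2-/-γc-/- libraries. The groups did not overlap, as for Irf4, a pattern shown in this direction by 4.37% of all tested genes. The means were 56.6 ± 6.60 and 82.5 ± 7.12 CPM, a log2 fold change of -0.54 ± 0.10 (95% interval -0.76 to -0.32; 1.46-fold; edgeR adjusted p = 0.00858). Ifnar2 shares 9.46% of its exon bases with a same-strand annotated gene, to which the table gives an average of 8.3 counts.

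The partner chain Ifnar1, also on chromosome 16, stood at 85.9, 152, 174, 151 and 162 CPM in C57BL/6J libraries and at 223, 205, 191, 160.4 and 159 CPM in Rag2-/-γc-/- libraries. The groups overlapped, and C57BL/6J library 1 was far below the other 9. The change of -0.37 ± 0.18 on the log2 scale had a 95% interval from -0.76 to 0.01 and did not pass (edgeR adjusted p = 0.206). The 2 chains of this receptor were therefore called differently, but a difference between their changes was not tested.

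The interferon-γ receptor did not pass the test. Its ligand-binding chain Ifngr1 had 285, 457, 471, 426 and 450.1 CPM in C57BL/6J libraries and 369.8, 430.1, 436, 414 and 398 CPM in Rag2-/-γc-/- libraries. Except for C57BL/6J library 1, the libraries lay between 369.8 and 471 CPM, and the log2 fold change was 0.03 ± 0.13 (95% interval -0.25 to 0.31; edgeR adjusted p = 0.902). Its second chain Ifngr2 ranged from 149.9 to 199 CPM in C57BL/6J and from 169 to 201 CPM in Rag2-/-γc-/- libraries, with a log2 fold change of -0.08 ± 0.09 (95% interval -0.29 to 0.12). The intervals of both chains exclude a change of the size seen for Irf1, whose estimate was 0.68.

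The IL-10 receptor chains were likewise not called. Il10ra, the ligand-binding chain, stood at 41.3, 70.6, 72.4, 65.2 and 62.1 CPM in C57BL/6J and at 101, 99.9, 84.4, 60.5 and 65.2 CPM in Rag2-/-γc-/- libraries (log2 fold change -0.40 ± 0.18, edgeR adjusted p = 0.195). Libraries 7, 8 and 9 were above the other 7, and libraries 10 and 11 lay among the C57BL/6J values. Il10rb, which IL-10 shares with IL-22 and the type III interferons, ranged from 40.4 to 59.2 CPM and from 51.8 to 64.4 CPM in the respective hosts, with a log2 fold change of -0.24 ± 0.11 (edgeR adjusted p = 0.198).

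Il6ra, the IL-6 binding chain (chr3:89869324-89913162, minus strand), fell in C57BL/6J recipients on average. It stood at 28, 64.2, 56.5, 56.3 and 44.1 CPM in C57BL/6J libraries. In Rag2-/-γc-/- libraries 7, 8 and 9 it stood at 141, 144 and 134 CPM, and in libraries 10 and 11 at 56.5 and 70.2 CPM. The Rag2-/-γc-/- group was therefore split, with its lower libraries at the level of the C57BL/6J group. The log2 fold change was -1.13 ± 0.29 (95% interval -1.78 to -0.49; means 49.8 ± 14.2 and 109 ± 42.4 CPM; edgeR adjusted p = 0.0383). The call was lost (edgeR adjusted p up to 0.0974) when any 1 of C57BL/6J libraries 1, 4, 5 and 6 or Rag2-/-γc-/- libraries 7, 8 and 9 was left out.

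Il6st, or gp130, the chain through which IL-6 and its relatives signal, showed a smaller split. It stood at 11.3, 20.9, 20.4, 24.8 and 16.1 CPM in C57BL/6J and at 42.0, 33.1, 28, 22.4 and 31.0 CPM in Rag2-/-γc-/- libraries. Only Rag2-/-γc-/- library 10 fell inside the C57BL/6J range. Its log2 fold change of -0.74 ± 0.21 (95% interval -1.21 to -0.28) did not pass (edgeR adjusted p = 0.0563), but passed in DESeq2 (adjusted p = 0.0123) and in edgeR without Rag2-/-γc-/- library 10 (adjusted p = 0.0235). It also passed in edgeR without C57BL/6J library 5 (adjusted p = 0.0465). With any other single library left out it did not pass (edgeR adjusted p up to 0.139).

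Among the kinases, Jak1, which serves interferon, IL-6 and IL-10 receptors alike, fell in C57BL/6J recipients (chr4:101152367-101265282, minus strand). It stood at 254, 257, 234, 217 and 197 CPM in C57BL/6J libraries and at 393, 333, 342, 255 and 290.0 CPM in Rag2-/-γc-/- libraries. Only library 10 reached into the C57BL/6J range, whose top is C57BL/6J library 3. The means were 232 ± 25.5 and 323 ± 52.6 CPM, a log2 fold change of -0.48 ± 0.12 (95% interval -0.75 to -0.21; 1.39-fold; edgeR adjusted p = 0.0379). Leaving out any 1 of C57BL/6J libraries 3, 4, 5 and 6 or Rag2-/-γc-/- libraries 7, 8 and 9 ended this call (edgeR adjusted p up to 0.101).

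Jak2, the kinase of the interferon-γ receptor and of the erythropoietin and GM-CSF receptors, was split more sharply inside the Rag2-/-γc-/- group. It stood at 124, 192, 172, 169 and 166 CPM in C57BL/6J libraries, at 269, 247 and 251 CPM in libraries 7, 8 and 9, and at 109.9 and 131 CPM in libraries 10 and 11. Libraries 7, 8 and 9 were above every C57BL/6J library, and library 10 was the lowest of all 10. The log2 fold change over all libraries was -0.30 ± 0.24 (95% interval -0.82 to 0.23; edgeR adjusted p = 0.448). It was -0.64 without libraries 10 and 11 (edgeR adjusted p = 0.00435) and 0.45 without libraries 7, 8 and 9 (edgeR adjusted p = 0.27), so its sign depended on which Rag2-/-γc-/- libraries were kept.

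Tyk2, the partner kinase of Jak1 at the type I interferon receptor, went the other way. Its values were 142, 191, 183, 169 and 166 CPM in C57BL/6J and 131, 129, 133, 149 and 159 CPM in Rag2-/-γc-/- libraries. C57BL/6J library 1 alone lay inside the Rag2-/-γc-/- range. The log2 fold change of 0.28 ± 0.10 (95% interval 0.07 to 0.50) did not pass over all libraries (edgeR adjusted p = 0.106), and passed without C57BL/6J library 1 (edgeR adjusted p = 0.0367). With any other single library left out it did not pass (edgeR adjusted p up to 0.239). Jak3, the kinase bound to the common γ chain, ranged from 64.4 to 111 CPM in C57BL/6J and from 67.3 to 111 CPM in Rag2-/-γc-/- libraries, with a log2 fold change of -0.08 ± 0.16 (95% interval -0.43 to 0.28).

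None of the 5 STAT genes that could be tested passed. Stat6 stood at 191, 196, 185, 192 and 176 CPM in C57BL/6J and at 160.0, 152, 156, 181 and 199 CPM in Rag2-/-γc-/- libraries, lowest in libraries 7, 8 and 9 (log2 fold change 0.15 ± 0.09, edgeR adjusted p = 0.304). Stat3, the main STAT of IL-6 and IL-10, stood at 129, 158, 133, 130.2 and 116 CPM and at 228, 174, 155, 100.5 and 152 CPM, with library 7 the highest and library 10 the lowest of all 10. Its log2 fold change was -0.28 ± 0.18 (95% interval -0.67 to 0.11; edgeR adjusted p = 0.334). Stat2 stood at 49.0, 76.2, 93.2, 82.4 and 70.1 CPM and at 103, 106, 92.7, 62 and 74.3 CPM, again overlapping (log2 fold change -0.24 ± 0.19, edgeR adjusted p = 0.423). Stat5a and Stat5b, the STATs of GM-CSF, IL-3 and erythropoietin signals, gave narrow bounds: 0.06 ± 0.12 (95% interval -0.20 to 0.32) and -0.0032 ± 0.08 (95% interval -0.17 to 0.17) on the log2 scale. Stat3 and Stat5a are neighbours that share 72 exon bases on opposite strands, and no statement on strand is given for the counting.

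Stat4 was detected in the C57BL/6J libraries alone, at 2.41, 0.765, 0.127, 0.0870 and 0.277 CPM in libraries 1, 3, 4, 5 and 6 (130 counts in all). The Rag2-/-γc-/- libraries had 0 counts in all 5. Against a floor of 3 counts over the Rag2-/-γc-/- group (0.0151 CPM), the pooled C57BL/6J level of 0.655 CPM was at least 43.5-fold higher. C57BL/6J library 1 gave most of the counts: without it 51 remained, at 0.308 CPM, and the bound was 20.4-fold. The T cell gene Cd3e followed the same order over those C57BL/6J libraries, at 3.42, 1.41, 0.406, 0.152 and 0.730 CPM, and was at most 0.0327 CPM in Rag2-/-γc-/- libraries. The sum of all 14 T cell markers had another order there, at 118, 65.8, 66.5, 78.0 and 118 CPM. The part of T cells in the Stat4 counts was not tested.

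None of the 4 SOCS-family genes passed. Socs1, the main brake on interferon-γ signalling and the gene with overlapping ISRE cores above, stood at 9.10, 9.57, 10.4, 14.9 and 14.4 CPM in C57BL/6J libraries and at 7.76, 9.35, 8.47, 6.27 and 5.92 CPM in Rag2-/-γc-/- libraries. C57BL/6J library 1 was the only one below a Rag2-/-γc-/- library, number 8. The log2 fold change was 0.63 ± 0.19 (95% interval 0.22 to 1.04; edgeR adjusted p = 0.0637), close in size to that of Irf1, and it passed in DESeq2 (adjusted p = 0.0173) and in edgeR without C57BL/6J library 1 (adjusted p = 0.0455). With any other single library left out it did not pass (edgeR adjusted p up to 0.161).

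Socs3, the inhibitor bound to gp130, went the opposite way in most libraries, at 17.4, 25.5, 25.4, 24.3 and 14.2 CPM in C57BL/6J and 70.8, 32.0, 32.2, 15.4 and 29.997 CPM in Rag2-/-γc-/- libraries. Library 7 had more than any other and library 10 lay among the lowest. Its log2 fold change was -0.76 ± 0.33 (95% interval -1.49 to -0.03; edgeR adjusted p = 0.182). Socs2 and Cish, classical STAT5 targets, were near the detection limit: Socs2 stood at 0.174 to 0.733 CPM in C57BL/6J and at 0.327 to 1.21 CPM in Rag2-/-γc-/- libraries, with a log2 fold change of -1.16 ± 0.44 (edgeR adjusted p = 0.127). Cish was highest in C57BL/6J library 1 at 1.28 CPM and at or below 0.543 CPM elsewhere, with a log2 fold change of 0.51 ± 0.69 that no direction can be read from.

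None of the other 4 negative regulators passed. Ptpn6, or SHP-1, a phosphatase of blood cells that acts on JAK kinases, stood at 345 to 436 CPM in C57BL/6J and 394 to 543 CPM in Rag2-/-γc-/- libraries (log2 fold change -0.19 ± 0.11, edgeR adjusted p = 0.268). Ptpn2, a phosphatase of JAK1, JAK3 and nuclear STATs, was among the steadiest genes of the set, at 38.5 to 41.5 CPM and 34 to 42.8 CPM, with a log2 fold change of 0.06 ± 0.08 (95% interval -0.12 to 0.25). Ptpn1, or PTP1B, a phosphatase of JAK2 and TYK2, had a log2 fold change of -0.08 ± 0.15, and Pias1, which binds activated STATs and blocks their DNA binding, one of -0.17 ± 0.10. Neither passed (edgeR adjusted p = 0.761 and 0.289).

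Of the remaining IRF-family genes none passed, and Irf7 varied the most. Irf7, the amplifier of the type I interferon response, stood at 27.9, 12.5, 39.5, 12.6 and 9.26 CPM in C57BL/6J libraries and at 35, 40.7, 47.2, 29.7 and 31.5 CPM in Rag2-/-γc-/- libraries. C57BL/6J libraries 3, 5 and 6 were below all Rag2-/-γc-/- libraries, library 1 was just below them, and library 4 lay among them. The log2 fold change was -0.86 ± 0.36 (95% interval -1.64 to -0.07; edgeR adjusted p = 0.163). Without C57BL/6J library 4 it was -1.24 (edgeR adjusted p = 0.0393). With any other single library left out it did not pass (edgeR adjusted p up to 0.312). Over the same libraries the median CPM of 18 ISGF3 targets, genes switched on by type I interferon, was 6.22, 4.06, 10.1, 3.86 and 3.37 and then 11.4, 14.3, 14, 8.54 and 10.8. The summed macrophage markers stood at 438, 289, 434, 357 and 231 CPM and then at 388, 660.0, 504, 481 and 479 CPM, so C57BL/6J libraries 1 and 4 were the highest of their group on all 3 measures. The part of those cells in the Irf7 values was not tested.

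**Figure D4:**
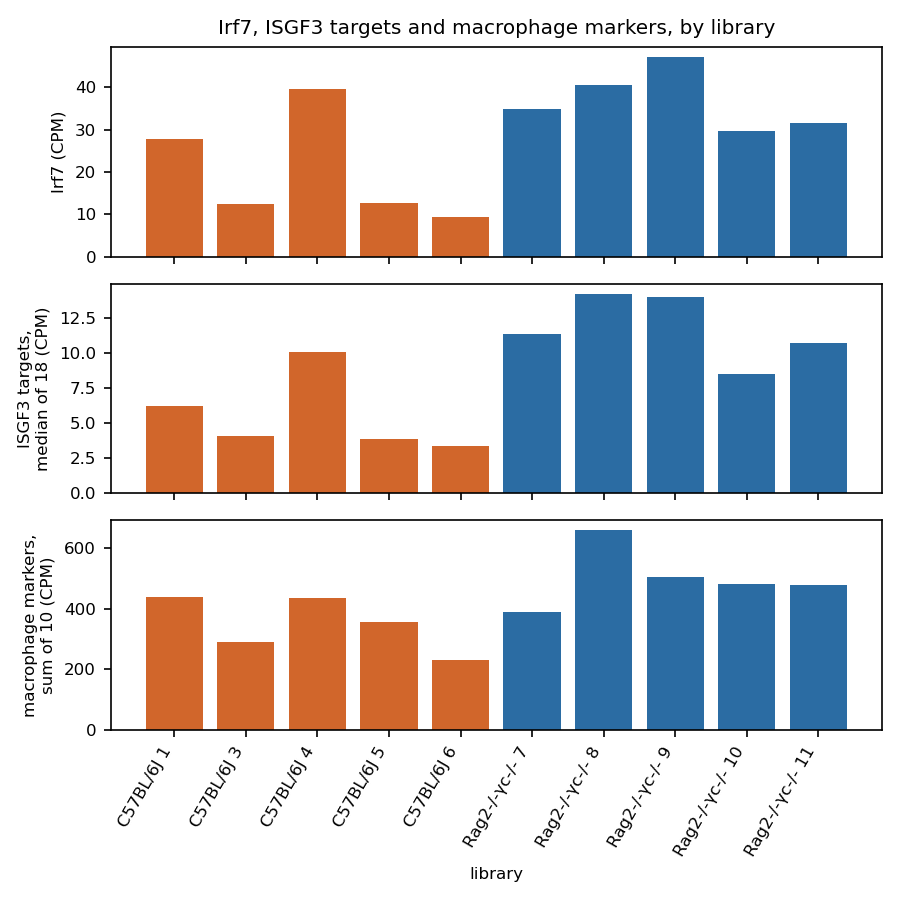
Irf7, the median of the ISGF3 targets and the summed macrophage markers in each of the 10 libraries, 1 bar panel each in CPM from 0 (orange C57BL/6J, blue Rag2-/-γc-/-). C57BL/6J libraries 1 and 4 are the highest of their group in every panel, and library 4 reaches the Rag2-/-γc-/- values of Irf7.

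Irf2, which competes with IRF1 for the same sites, stood at 121, 113, 115, 103 and 97.2 CPM in C57BL/6J libraries, at 172, 186 and 178 CPM in libraries 7, 8 and 9, and at 95 and 116 CPM in libraries 10 and 11. Like Jak2 and Il6ra, it was split inside the Rag2-/-γc-/- group, and its log2 fold change was -0.44 ± 0.18 (95% interval -0.83 to -0.06; edgeR adjusted p = 0.143). Irf3, the constitutive IRF of nucleic acid sensing, was split the other way, at 45.7, 38.5 and 40.0 CPM in libraries 7, 8 and 9 and at 53.8 to 64.7 CPM in the other 7 (log2 fold change 0.21 ± 0.14, edgeR adjusted p = 0.355). Irf5, an IRF of Toll-like receptor signalling in macrophages, stood at 389 to 490.0 CPM and 419 to 558 CPM, with a log2 fold change of -0.13 ± 0.10. It shares 14.2% of its exon bases with Tnpo3 on the opposite strand.

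Irf9, the DNA-binding partner of STAT2, was nearly level at 73.5 to 82.6 CPM in C57BL/6J and 73.6 to 88.9 CPM in Rag2-/-γc-/- libraries. Its log2 fold change was -0.05 ± 0.08, with a 95% interval from -0.22 to 0.13. Irf2bp2, a corepressor named for its binding to IRF2, stood at 185 to 256 CPM and at 217 to 397 CPM, highest in library 7 (log2 fold change -0.40 ± 0.15, edgeR adjusted p = 0.136). Among the IRF-family genes the calls were thus 1 rise, Irf1, and 1 fall, Irf4, of 8.

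**Figure D5:**
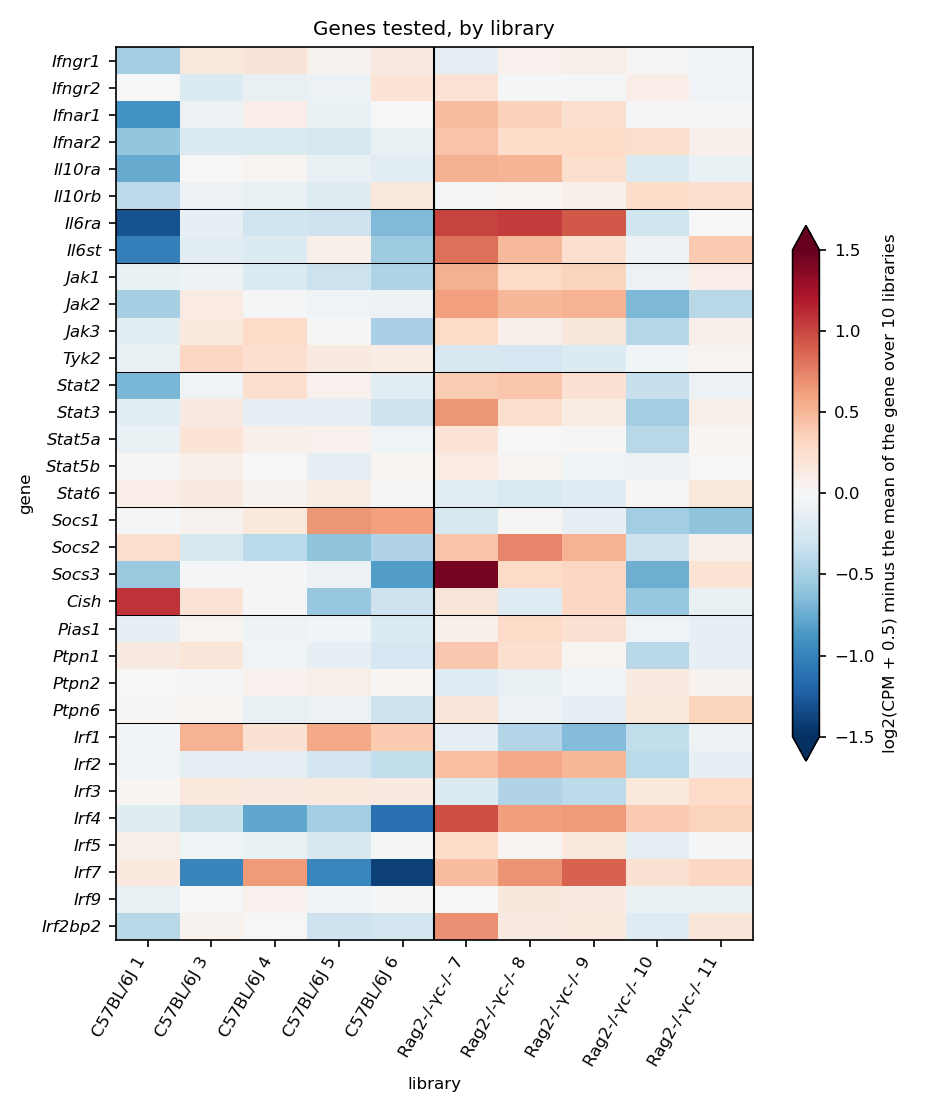
Log2(CPM + 0.5) of each of the 33 tested genes minus its mean over the 10 libraries (red above, blue below), with genes by role from top to bottom and libraries by host from left to right. Columns 7, 8 and 9 are high for Il6ra, Jak2 and Irf2 among others, while columns 10 and 11 lie near the C57BL/6J columns for those 3 genes.

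The split inside the Rag2-/-γc-/- group ran through much of the set. Libraries 7, 8 and 9 were all above the other 7 libraries in 11 of the 33 tested genes (33.3%, against 16.5% of all genes tested): Ifnar1, Ifnar2, Il10ra, Il6ra, Jak1, Jak2, Socs2, Socs3, Pias1, Irf2 and Irf4. They were all below the other 7 in 4 (12.1%, against 16.5%): Tyk2, Stat6, Ptpn2 and Irf3. The labels do not separate these libraries from libraries 10 and 11, so the split was seen in the data and is not a group of the study. The number of genes that passed differed with the libraries left out. The fit without libraries 7, 8 and 9 kept only libraries 10 and 11 of the Rag2-/-γc-/- group. Fewer libraries and the split cannot be told apart in that fit. Without libraries 10 and 11, 5 genes of the set were called higher and 13 lower in C57BL/6J recipients, beside 19.3% and 17.4% of all genes. Without libraries 7, 8 and 9 none was called by edgeR in either direction, beside 1.01% and 0.87% of all genes. At an unadjusted p under 0.05 edgeR had 8 of 34 genes there (23.5%), beside 13.2% of all genes. In the comparison without 7, 8 and 9 the log2 fold changes of the called genes were 0.57 for Irf1 (edgeR adjusted p = 0.187), -0.96 for Irf4 (0.0976), -0.44 for Ifnar2 (0.17), -0.34 for Il6ra (0.706) and -0.23 for Jak1 (0.547). All 5 kept their sign. When single libraries were left out, Irf1, Irf4 and Ifnar2 were called each time, with edgeR adjusted p up to 0.0440, 0.0129 and 0.0260. Il6ra and Jak1 were not, as given above.

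C57BL/6J library 1 also stood apart. It was the lowest of all 10 in 10 of the 33 genes (30.3%, against 21.1% of all genes tested), among them 7 of the 8 receptor chains: Ifngr1, Ifnar1, Ifnar2, Il10ra, Il10rb, Il6ra and Il6st. The other 3 were Stat2, Irf9 and Irf2bp2. Mitochondrial genes took 1.34% of its counts, against 2.91 to 4.002% in the other 9 libraries, and its summed B and plasma cell markers were 153 CPM, against at most 26.4 CPM elsewhere. The part of these in the low receptor values was not tested. Without it the edgeR test called 3 genes of the set higher, Irf1, Tyk2 and Socs1, and 4 lower, Irf4, Ifnar2, Jak1 and Socs2, beside 3.68% and 4.44% of all genes. Among other ways of testing, limma-voom with sample quality weights called 5 genes of the set higher and 14 lower, beside 23.7% and 23.0% of all genes. DESeq2 called 3 higher and 5 lower, beside 5.61% and 6.99%, and edgeR without a count filter 2 and 4, beside 2.42% and 2.6%.

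Other genes of the pathway were described from lists of further receptors, ligands, regulators and targets. Of 135 such genes 110 could be tested, and 13 rose (11.8%) and 15 fell (13.6%) in C57BL/6J recipients, beside 3.32% and 4.47% of all genes. Leaving out 1 library gave 8 to 17 rises and 4 to 26 falls, the fewest falls when C57BL/6J library 5 was dropped. When Rag2-/-γc-/- libraries 7, 8 and 9 were dropped together there were 7 rises and 0 falls by edgeR. Of 20 further receptors 12 averaged under 1 CPM, and 1 of the 11 tested passed: Epor, the erythropoietin receptor, fell from 0.531 ± 0.174 CPM in Rag2-/-γc-/- to 0.159 ± 0.112 CPM in C57BL/6J recipients (edgeR adjusted p = 0.0341). Leaving out any 1 of C57BL/6J libraries 3, 4, 5 and 6 or Rag2-/-γc-/- libraries 8 and 9 ended that call (edgeR adjusted p up to 0.0929). Of 18 ligands 16 averaged under 1 CPM, and 1 of 6 tested passed: Il10, the ligand of the receptor above, was 0.288 ± 0.146 CPM in C57BL/6J and 1.07 ± 0.591 CPM in Rag2-/-γc-/- recipients (edgeR adjusted p = 0.0374). That call was lost in 9 of 10 such runs, all but the one without Rag2-/-γc-/- library 10 (edgeR adjusted p up to 0.0955). Of the 28 further regulators, Usp18, which blocks JAK1 at IFNAR2, fell from 19.6 ± 3.31 to 10.7 ± 4.43 CPM (edgeR adjusted p = 0.0461). It was lost when any 1 of C57BL/6J libraries 1, 3, 5 and 6 or of Rag2-/-γc-/- libraries 7, 8 and 9 was dropped (edgeR adjusted p up to 0.113).

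Targets of the different STATs are given list by list, and differences between the lists were not tested. For scale, 3.32% of all genes tested rose in C57BL/6J recipients and 4.47% fell, with a median log2 fold change of 0.00. Of 17 tested interferon-γ targets 9 rose and 1 fell, with a median log2 fold change of 0.82. The 4 with the smallest p were the GTPase genes Gbp2, Iigp1 and Gbp3 and the uridine phosphorylase gene Upp1, at log2 fold changes of 4.05 ± 0.34, 5.10 ± 0.44, 2.81 ± 0.43 and 3.49 ± 0.36. These 4 passed with each library left out in turn and without libraries 7, 8 and 9, while the count of rises went down to 6 when C57BL/6J library 6, Rag2-/-γc-/- library 8 or Rag2-/-γc-/- library 9 was dropped. Of 18 ISGF3 targets none rose and 8 fell, with a median of -1.06; the 4 with the smallest p were Ifi27l2a (-0.97 ± 0.18), Oas1a (-1.78 ± 0.37), Xaf1 (-1.14 ± 0.27) and Oas3 (-1.55 ± 0.40). The 8 falls became 2 or 3 when any 1 of C57BL/6J libraries 1, 3, 5 and 6 or Rag2-/-γc-/- libraries 7, 8 and 9 was left out, and 0 without libraries 7, 8 and 9 together; Xaf1 and Oas3 were each lost in 6 of 10 single-library runs, and Ifi27l2a and Oas1a in none.

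The next lists are set beside the same shares over all genes tested, 3.32% higher and 4.47% lower with a median of 0.00. Of 11 STAT5 targets none rose and 3 fell (27.3%), with a median of -0.32. These were Spry1, an inhibitor of RAS signalling (0.225 against 0.702 CPM), the cyclin gene Ccnd2 (20.6 ± 8.98 against 57.4 ± 12.1 CPM, without overlap) and Dusp5, a phosphatase of ERK (54.4 ± 9.49 against 111 ± 51.4 CPM). Of 11 STAT3 targets 2 rose, Hif1a (163 ± 9.64 against 126 ± 9.70 CPM) and Vegfa (2.74 ± 1.47 against 1.01 ± 0.404 CPM), and none fell. Of 11 STAT6 targets Mgl2, a lectin gene of macrophages and dendritic cells, rose (12.3 ± 2.58 against 1.78 ± 0.852 CPM) and the chemokine gene Ccl24 fell (0.0496 ± 0.0634 against 1.16 ± 0.842 CPM). Without libraries 7, 8 and 9 only Mgl2 of these 7 genes passed. With single libraries left out, Spry1, Mgl2 and Ccl24 were called each time. Ccnd2 was lost without C57BL/6J library 5 (edgeR adjusted p = 0.0506), Hif1a without C57BL/6J library 6 (edgeR adjusted p = 0.0511), Dusp5 when any 1 of C57BL/6J libraries 1, 4, 5 and 6 or of Rag2-/-γc-/- libraries 8 and 9 was dropped, and Vegfa likewise for C57BL/6J libraries 3, 4 and 6 and Rag2-/-γc-/- libraries 7, 8 and 9. STAT5 targets called higher, 0 here, numbered 2 in DESeq2 and in unweighted voom and 3 without Rag2-/-γc-/- library 11.

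Sums of 8 of 9 marker lists differed between the hosts. The cells had leukocyte and myeloid markers, with Ptprc at 410 to 743 CPM and Itgam at 398 to 1161 CPM, and they also had dendritic cell markers, with Xcr1 at 212 to 573 CPM. Ly6g of mature neutrophils was at or below 0.0494 CPM, and the summed neutrophil markers did not pass (10.7 ± 9.83 against 16.8 ± 10.4 CPM; exact permutation, adjusted p = 0.381). The summed T cell markers were 89.3 ± 26.7 CPM in C57BL/6J and 35.1 ± 11.1 CPM in Rag2-/-γc-/- recipients, with Trac, Cd8b1 and Cd28 at 0 counts in the latter, and the NK markers were 34.9 ± 5.63 and 20.03 ± 7.69 CPM, with Ncr1 at 0 there. The B and plasma cell sum was 43.0 ± 61.8 against 3.34 ± 0.456 CPM, the conventional dendritic cell sum 4443 ± 499 against 3365 ± 389 CPM, and the macrophage sum 349.7 ± 90.4 against 502 ± 98.7 CPM. The erythroid sum was 51.7 ± 54.4 against 164 ± 65.2 CPM and the plasmacytoid sum 154 ± 20.3 against 208 ± 33.5 CPM, with Siglech itself at or below 0.397 CPM. In an exact two-sided permutation test over all assignments of the libraries, adjusted over 9 lists, these sums gave p = 0.0306, as did the leukocyte sum (5948 ± 334 against 6775 ± 630.3 CPM), and the macrophage sum gave 0.0446. Of the 14 T cell markers 9 averaged under 1 CPM, as did 5 of the 8 NK markers. A few genes thus made up most of those sums. Rag2-/-γc-/- mice lack T and NK cells, yet both sums had counts there, so neither measures those cells alone. The plasmacytoid list shares Bst2 with the ISGF3 targets, and 4 of its 8 genes averaged over 1 CPM. The part of the cell types of these lists in the values of the 34 genes was not tested.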

How the data were processed

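Poly(A)-selected RNA of GFP+ splenocytes was sequenced as single reads, per the labels' protocols. Expected counts per gene, in 1 table, are what the authors deposited. Cutadapt 1.11, STAR 2.5.2a, RSEM 1.2.30, edgeR and build GRCm38 are named, per the submitters' processing notes; the annotation release and strand setting are not given. Such counts divide reads that fit several genes, so values of overlapping genes depend on that division; 18 of the 34 genes share exon bases with another annotated gene.

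Columns were assigned by library title. Totals were 32703932 to 44097690 counts in C57BL/6J and 28157745 to 62461126 in Rag2-/-γc-/- libraries, and 15.3 to 17.3% of values were not whole and were rounded. Libraries of the same group differed by more than sampling noise in every pair (chi-square per degree of freedom 8.64 to 203 in 20 pairs). The test was edgeR 4.0.16 (R 4.3.3; TMM, filterByExpr with a minimum count of 10 and total of 15, quasi-likelihood F test, Benjamini-Hochberg), checked on simulated data. Alternatives were RLE and upper quartile scaling, no filter, at least 1 CPM in 5 libraries, limma 3.58.1 voom with and without sample weights, DESeq2 1.42.0, and libraries left out. Positions and exon lengths come from GENCODE M21, which held 95.1% of the identifiers.

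The genes and lists were chosen with earlier results of these data known. All 34 genes are named, and of each further list at most the 4 called genes with the smallest adjusted p; 1 gene of these lists is not reported here. Marker genes are named where a sentence on another cell type needs them.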

Additional observations from a re-analysis of the deposited data

Results flagged for a closer look

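Within each group of 5 libraries, the highest and the lowest value was compared with the rest by its gap to the nearest library over the group's range, against Dixon's critical value of 0.71, for the 34 genes and the 9 marker sums (86 groups). Chance alone marks about 1 in 20 such groups. The distance was beyond that value for Ifngr1 in C57BL/6J library 1, at 285 CPM where the other 4 had 426 to 471. It was so for Ifnar1 in the same library, at 85.9 CPM where the others had 151 to 174, and for Irf3, at 53.8 CPM where the others had 57.7 to 58.9. Of the marker sums, C57BL/6J library 1 stood apart for B and plasma cell markers, at 153 CPM against 7.36 to 26.4 in the others, and for erythroid markers, at 146 CPM against 14.9 to 48.6. C57BL/6J library 3 stood apart for neutrophil markers, at 27.8 CPM against 3.76 to 10.2.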

How the results depend on the processing

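No paired analysis was possible because the title numbers are not shared between the groups and no batch or donor is labelled. Over 19 alternatives, 17 of the 33 tested genes kept their sign in each, and of 625 values 539 kept both sign and side of the threshold. RLE scaling, upper quartile scaling and both filters kept all 5 calls; voom without weights kept 4, losing Il6ra (adjusted p = 0.0546). Genes of the set called higher (1 in the test as reported) numbered 2 without a filter, where Stat4 was added, 5 in voom with sample weights, 3 in DESeq2, 5 without Rag2-/-γc-/- libraries 10 and 11, 0 without 7, 8 and 9, and 1 to 3 when single libraries were left out. Genes called lower (4) numbered 14 in weighted voom, 13 without 10 and 11, 0 without 7, 8 and 9, and 2 to 9 with single libraries left out. Over all genes, those higher (464) numbered 3306 in weighted voom, 971 in DESeq2, 2786 without 10 and 11, 148 without 7, 8 and 9, and 275 to 1076 with single libraries left out. Those lower (624) numbered 3217, 1210, 2518, 127 and 304 to 1323 under the same settings. Of the further pathway and target genes, those higher (13) numbered 25 in weighted voom, 22 without 10 and 11, 7 without 7, 8 and 9, and 8 to 17 with single libraries left out. Those lower (15) numbered 42 in weighted voom, 27 in DESeq2, 36, 0 and 4 to 26.

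Signs turned in more genes without libraries 7, 8 and 9 than in any other setting. The log2 fold changes there were 0.45 for Jak2, 0.14 for Jak3, 0.13 for Stat2, 0.079 for Stat3, 0.051 for Stat5b and -0.0087 for Stat6. They were 0.020 for Pias1, 0.25 for Ptpn1, -0.056 for Ptpn2, 0.064 for Irf2, -0.10 for Irf3, 0.019 for Irf5 and 0.084 for Irf9. The cause was not tested. Without 10 and 11 Stat5a turned to -0.033. Weighted voom gave -0.51 for Cish and 0.0041 for Stat5b, which was 0.012 with upper quartile scaling and 0.0066 without a filter. With single libraries left out the values ran from -0.016 to 0.14 for Ifngr1, -0.17 to 0.023 for Jak3, -0.024 to 0.12 for Stat5a, -0.025 to 0.031 for Stat5b, -0.30 to 0.80 for Cish and -0.17 to 0.021 for Ptpn1.

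The marker sums kept their direction. The difference of means, C57BL/6J minus Rag2-/-γc-/-, without libraries 7, 8 and 9 was 43.7 CPM for T, 22.6 for NK, 39.96 for B and plasma cell, -17.2 for plasmacytoid, 775 for conventional dendritic, -130.2 for macrophage, -71.9 for erythroid and -278 for leukocyte markers. Without 10 and 11 it was 9.90 for NK, 39.7 for B and plasma cell, -166 for macrophage and -139 for erythroid markers. The macrophage difference was -148 CPM with upper quartile scaling (exact permutation, adjusted p = 0.0536). With single libraries left out it ran from 47.0 to 60.1 for T, 12.6 to 17.1 for NK, 12.3 to 48.5 for B and plasma cell, -63.8 to -47.2 for plasmacytoid, 914 to 1264 for conventional dendritic, -183 to -113 for macrophage, -136 to -93.4 for erythroid and -1003 to -610 for leukocyte markers. The adjusted p then rose above 0.05 in 1 of 10 runs for T, 4 for NK, 5 for B and plasma cell and 7 for plasmacytoid markers. It did so in 5 for conventional dendritic, 8 for macrophage, 7 for erythroid and 6 for leukocyte markers (exact permutation, adjusted p up to 0.134). The smallest unadjusted p of this test with all 10 libraries, 0.00794, was also reached in these runs. Without libraries 7, 8 and 9 together the smallest unadjusted p was 0.0476 (exact permutation, NK markers). That is the lowest value this test can give with the libraries left. It therefore could not decide whether the sums differ there. Depth limits Stat4, Socs2 and Cish, which averaged under 1 CPM.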

Other observations

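Lifr, the receptor chain that pairs with gp130 for leukaemia inhibitory factor, was singled out after its values were seen. It stood at 73.2, 217, 183, 178 and 75.6 CPM in C57BL/6J libraries, at 568, 571 and 538 CPM in Rag2-/-γc-/- libraries 7, 8 and 9 and at 125 and 208 CPM in libraries 10 and 11. Its log2 fold change was -1.47 ± 0.45 and did not pass (edgeR adjusted p = 0.0740). The split inside the Rag2-/-γc-/- group is the one seen for Il6ra, Jak2 and Irf2.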
